A study of Mus musculus with 19 samples.

Results

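The nuclear and mitochondrial genes for the subunits of the 5 oxidative phosphorylation complexes were followed in mouse tumours with and without a knockdown of Ldha, under control antibody or anti-CTLA-4. Members were chosen by gene symbol: Nduf genes of the a, b, c, s and v series, Sdha to Sdhd, Uqcr genes, Cox4 to Cox8 genes with a letter, Atp5 genes, and the mitochondrially encoded Nd, Co, Cytb and Atp genes, without pseudogenes and without Ndufaf assembly factors. Of 46983 genes in the count table, 95 matched, and 85 reached at least 1 CPM (read count per 1000000 reads counted on genes) in at least 4 of 19 libraries. The 10 below that level were 6 mitochondrial genes and the tissue-restricted Cox6b2, Cox7b2, Cox8b and Cox8c, and 4 pseudogenes were left out. The 85 were 78 nuclear and 7 mitochondrial genes. The nuclear genes were 35 of complex I, 4 of complex II, 8 of complex III, 14 of complex IV and 17 of complex V, with Ndufa4 and Ndufa4l2 counted in complex IV. The mitochondrial genes were mt-Nd1, mt-Nd2, mt-Nd4, mt-Nd5 and mt-Nd6 of complex I, mt-Cytb of complex III and mt-Co1 of complex IV. The symbol rule does not reach Cox4i1, Cyc1 and Ndufab1, which also are subunits, and it takes in Atp5s and Atp5sl, which are not subunits of the synthase despite their symbols.

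The tumours were grown by implanting cells of 4T1, a BALB/c mammary carcinoma line, into naïve mice of the strain BALB/cAnN. Control tumours came from the line labelled 4T1-Sc and knockdown tumours from 4T1-KD, called LDHA-KD here. Mice received IgG or an antibody to CTLA-4, a receptor that restrains T cell activation, from day 3 after implantation, in 3 doses given 3 days apart. The 4 groups were control tumours under IgG (n = 4, replicates 1, 3, 4 and 5), control tumours under anti-CTLA-4 (n = 5), LDHA-KD tumours under IgG (n = 5) and LDHA-KD tumours under anti-CTLA-4 (n = 5). The labels place the knockdown in the implanted line, so the host's own cells in a tumour do not carry it. The labels do not say how the knockdown was made, whether each line is 1 clone, or which age the mice had.

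Oxidative phosphorylation takes electrons from NADH through complex I, or from succinate through complex II, and passes them by ubiquinone to complex III, by cytochrome c to complex IV and so to oxygen. Complexes I, III and IV pump protons across the inner mitochondrial membrane, and complex V, the ATP synthase, uses the gradient to make ATP. Most subunits are encoded in the nucleus and imported, while a few hydrophobic core subunits are encoded in mitochondrial DNA, so complexes I, III, IV and V are built from the products of both genomes. Lactate dehydrogenase A turns pyruvate into lactate and regenerates NAD+, and tumours such as 4T1 are known for strong glycolysis with lactate release.

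The libraries held 31783272 to 43266699 reads counted on genes, and a floor of 3 counts lay between 0.0693 and 0.0944 CPM of these totals. Ldha measured 1282 to 1925 CPM in control tumours under IgG and 1523 to 2243 CPM in control tumours under anti-CTLA-4, against 452 to 519 CPM and 485 to 584 CPM in LDHA-KD tumours, so the level in every library matched its label. All 9 markers of mammary carcinoma epithelium on the list used here were detected, with a summed level of 2168 to 4937 CPM over the 19 libraries. In LDHA-KD tumours under anti-CTLA-4, replicates 3 and 5 stood apart: 13.8% and 12.1% of their records fell outside genes, above the 8.42% to 11.6% of the other 17 libraries.

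Mitochondrial transcripts were by far the most abundant of the set. On the scale of CPM per kilobase of exon, as the median over 19 libraries, mt-Co1, the catalytic core of complex IV, had a level of 7614, mt-Cytb, the only mitochondrially encoded subunit of complex III, 4495, and mt-Nd6, the lowest of the 7, 650.3. The 7 mitochondrial genes took ranks 1 to 7 of the 85 on this scale. The nuclear genes had a median of 49.1 CPM per kilobase and ran from 1.21 for Cox6a2, a heart and skeletal muscle subunit of complex IV, to 265 for Cox6b1, a ubiquitous subunit of the same complex. Among the nuclear genes the median level per kilobase was 37.8 in complex I, 46.6 in complex II, 85.6 in complex III, 106 in complex IV and 56.7 in complex V. RNA had been selected by its polyA tail, and mt-Nd6, which lies on the other strand of the mitochondrial genome, is known as the mitochondrial mRNA that lacks one.

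Another 6 mitochondrial genes were close to 0 in these files, and their low counts are not taken as low expression. mt-Co2, mt-Atp6, mt-Atp8, mt-Nd3 and mt-Nd4l stayed at or below 0.382 CPM in all 19 libraries. mt-Co3 did so in 18 libraries and reached 50.4 CPM in 1, replicate 3 of the LDHA-KD tumours under IgG. Their transcripts were therefore aligned to all transcripts of the GENCODE M21 annotation. A cluster of 7 annotated pseudogenes at chr1:24611535-24616197 (mm10, minus strand), a nuclear copy of mitochondrial DNA spanning 4.66 kb, held stretches 99.7% to 100% identical to mitochondrial genes. The stretches covered 99.6% of mt-Co2, 99.9% of mt-Co3, 99.6% of mt-Atp6, 99.1% of mt-Nd3, 99.0% of mt-Nd4l and 21.1% of mt-Atp8. Only annotated transcripts were searched, so bases between the pseudogenes were not compared, and the true cover of mt-Atp8 could be higher. Of the 7 genes with high counts, mt-Nd4 was covered over 63.6% and mt-Co1 over 31.3% of its length, and mt-Cytb, mt-Nd1, mt-Nd2, mt-Nd5 and mt-Nd6 over 0%.

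The first 33 bases of the mt-Nd3 transcript and of its copy Gm28438 show how little separates the 2 genomes, with the only base that differs within 345 compared in capitals (T3C, counted from base 1 of mt-Nd3).
mt-Nd3: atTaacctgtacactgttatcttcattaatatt
Gm28438: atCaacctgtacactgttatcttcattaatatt
The pseudogenes of the chromosome 1 cluster collected at most 17 counts in any library. Less similar copies on chromosome 2 collected more. Gm13340, 97.6% identical over all of mt-Co1, had 87 to 308 counts per library. Gm13341, 95.9% identical over all of mt-Co2, had 44 to 95. Between 10.2% and 14.1% of all records were listed as not uniquely placed. How the authors' counting treated reads with more than 1 placement is not given in the sources used here, and its part in the low counts was not tested. Whether it also lowered the counts of mt-Co1 and mt-Nd4 over the shared stretches was not tested.

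**Figure D1:**
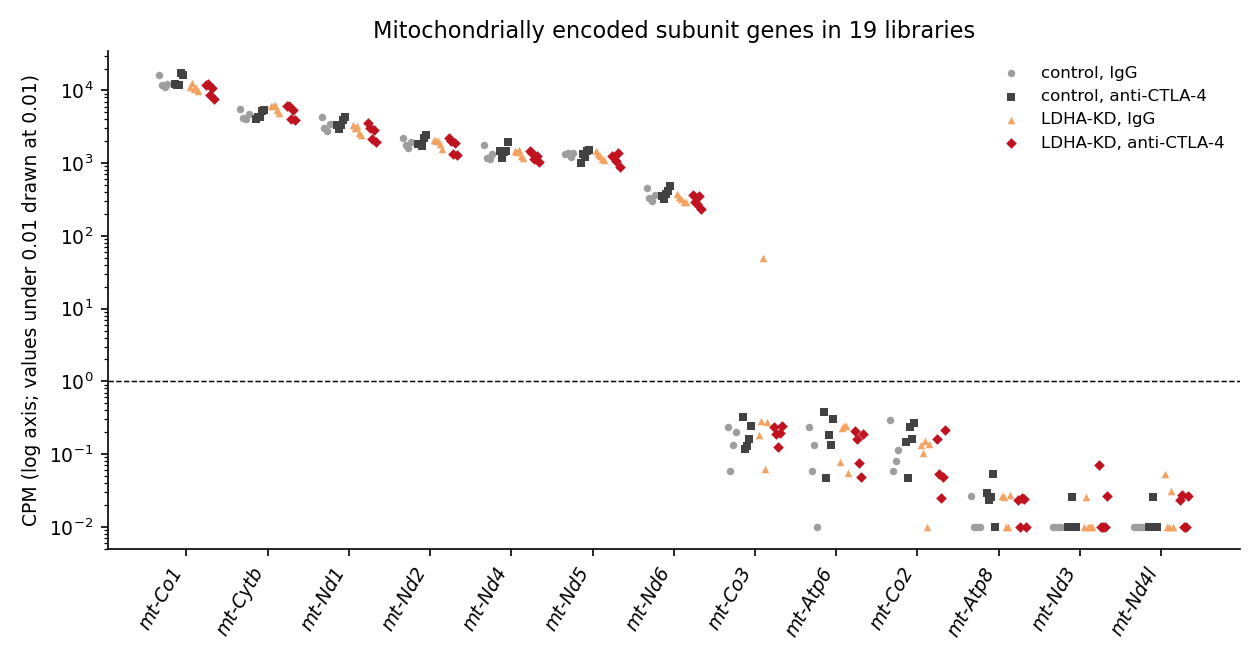
CPM (log axis) of the 13 mitochondrially encoded subunit genes in each of the 19 libraries, ordered by median and coloured by group, with values under 0.01 drawn at 0.01 and a dashed line at 1 CPM. The upper 7 genes lie above 200 CPM in every library, and 6 lie below 1 CPM except for mt-Co3 in replicate 3 of LDHA-KD under IgG, at 50.4 CPM.

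The balance between the 2 genomes differed between the groups by less than the spread between replicates. The summed level of the 78 nuclear genes was 9428 ± 961 CPM (SD, n = 4) in control tumours under IgG, 9829 ± 652 (n = 5) in control tumours under anti-CTLA-4, 9239 ± 160.3 (n = 5) in LDHA-KD tumours under IgG and 8523 ± 1485 (n = 5) in LDHA-KD tumours under anti-CTLA-4. The 7 mitochondrial genes summed to 25839 ± 4296, 27287 ± 4319.7, 24542 ± 2324 and 22464 ± 4482 CPM in the same order. The log2 ratio of mitochondrial to nuclear counts was 1.45 ± 0.12, 1.46 ± 0.20, 1.40 ± 0.13 and 1.39 ± 0.15 (SD). LDHA-KD differed from control by -0.04 under IgG and by -0.07 under anti-CTLA-4 in this log2 ratio, less than the pooled SD of 0.15 between replicates. As the members were chosen with results known, no p was computed for these sums.

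Within LDHA-KD tumours under anti-CTLA-4 the libraries spread widely. Summed nuclear levels were 10760.4, 8879, 6912, 8584 and 7476 CPM in replicates 1 to 5, and summed mitochondrial levels were 26604, 26297, 18541, 23970.2 and 16908 CPM. Replicates 3 and 5, the libraries with the largest share of records outside genes, were lowest on both counts, and replicate 1, with the smallest share (8.42%), was highest on both. Without replicates 3 and 5 the group's nuclear sum was 9408 ± 1180.4 CPM (n = 3), between those of the 2 IgG groups. The part of the share outside genes in these levels was not tested beyond the covariate fit given with the anti-CTLA-4 comparison.

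**Figure D2:**
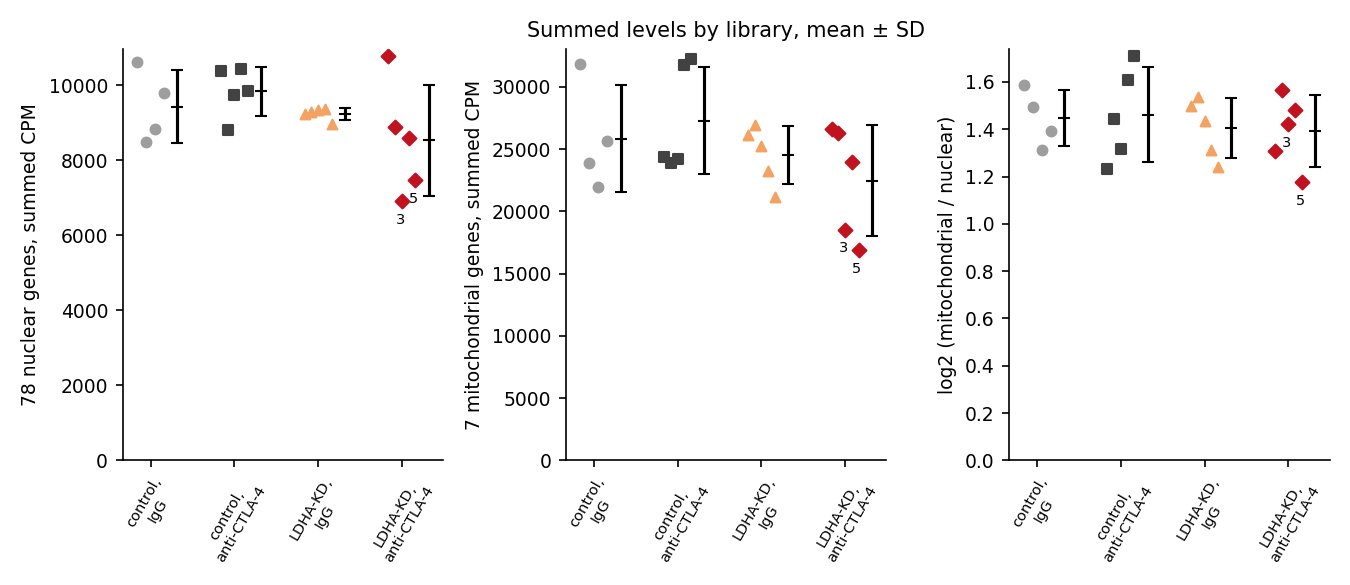
Summed CPM of the 78 nuclear genes (left) and the 7 mitochondrial genes (middle) and the log2 ratio of the sums (right) per library, by group, with mean ± SD beside the points. LDHA-KD anti-CTLA-4 replicates 3 and 5 are numbered: they are the lowest of the 19 libraries in both sums, at 6912 and 7476 CPM for the nuclear genes, while their log2 ratios of 1.42 and 1.18 are not both low.

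Under IgG, some oxidative phosphorylation genes were higher and some lower in LDHA-KD tumours, and most did not pass the test. In all, 8 genes were higher in LDHA-KD than in control tumours (edgeR quasi-likelihood test, Benjamini-Hochberg adjusted p under 0.05, 16763 genes tested), which is 9.41% of the members, against 16.8% of all genes tested. They were Ndufa8 and Ndufa12 of complex I, Uqcr11 of complex III, Cox6c and Cox6a2 of complex IV, and Atp5d, Atp5g1 and Atp5sl under the Atp5 symbols. Cox6a2 is a member only through LDHA-KD libraries (4 at 1 CPM or more, against 0 of 9 control libraries), so its place among the 8 is set by the level rule. Another 5 were lower, 5.88% of the members against 17.5% of all genes, among them Ndufa1 and Ndufb11 of complex I, Cox5a of complex IV and Atp5k of complex V. The median log2 fold change was -0.09 over the members, or -0.03 without control replicate 1, and 0.00 over all genes. With the share of records outside genes as a covariate, 16 members were higher, 18.8% against 17.9% of all genes, and the members' median was 0.00. Under IgG that share averaged 10.6% in LDHA-KD and 9.71% in control tumours. The covariate fit therefore does not fully separate it from the knockdown. In bulk tumour RNA a smaller share of cells and less RNA per cell cannot be told apart.

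By complex, complex I had 2 members higher and 3 lower of 35 nuclear genes (median log2 fold change -0.11), and complex II had none of 4 (-0.02). Complex III had 1 higher of 8 (-0.14), complex IV 2 higher and 1 lower of 14 (-0.12), and complex V 3 higher and 1 lower of 17 (0.12). Of the 2 higher in complex IV, 1 was Cox6a2, a member only through LDHA-KD libraries. The 17 take in Atp5s and Atp5sl, which are not subunits, and Atp5sl was 1 of the 3 higher. None of the 7 mitochondrial genes was called (median -0.06). The CPM of 9 of the 85 members, Cox6a2 among them, did not overlap between the groups with LDHA-KD higher, beside 15.1% of all genes. That of 7 did not with LDHA-KD lower, beside 15.2%.

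Under anti-CTLA-4 the same comparison gave 38 members lower and 1 higher in LDHA-KD tumours. The lower members were 44.7% of the 85, against 19.8% of all genes, and the single higher member was 1.18%, against 20.2% of all genes. Complex I had 17 of 35 nuclear genes lower (median log2 fold change -0.30), complex II 2 of 4 (-0.13), complex III 4 of 8 (-0.30), complex IV 6 of 14 (-0.28) and complex V 7 of 17 lower with 1 higher (-0.21). Of the mitochondrial genes, mt-Co1 and mt-Nd6 were called lower (2 of 7, median -0.26). Both genomes and all 5 complexes therefore held called members, and the median over the 85 was -0.26 on the log2 scale against 0.01 over all genes. Without overlap in CPM were 7 members with LDHA-KD lower and 0 with LDHA-KD higher, each beside 11.6% of all genes. The log2 fold changes of the 38 ran from -0.81 to -0.14, with a median of -0.37.

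That count depended on a few libraries. Leaving out replicate 3 of LDHA-KD under anti-CTLA-4 gave 21 members lower (24.7%, against 17.7% of all genes). Leaving out replicate 5 of that group gave 22 (25.9%, against 17.5%), while leaving out its replicate 1 gave 56 (65.9%, against 21.7%). Leaving out replicate 1 of control under anti-CTLA-4 gave 25 (29.4%, against 17.6%). Without replicates 3 and 5 of LDHA-KD under anti-CTLA-4, an alternative chosen after seeing the data, 14 members were lower, 16.5% of the members against 16.1% of all genes, and the members' median was -0.14. With the share of records outside genes as a covariate 15 were lower (17.6% against 16.8%). That share averaged 11.2% in LDHA-KD and 9.53% in control tumours under anti-CTLA-4, so this fit does not fully separate it from the knockdown either. All 5 members lower under IgG were also lower under anti-CTLA-4, and of the 8 higher under IgG only Atp5d was also called under anti-CTLA-4 in the fit over all libraries. Which genes these were changed with the libraries: without replicates 3 and 5 of LDHA-KD under anti-CTLA-4, Atp5d was not called (adjusted p = 0.0874, edgeR), while Atp5g1, Cox6c, Ndufa12 and Uqcr11 were called higher there (0.0253, 0.00414, 0.0149 and 0.00692). With the covariate all 5 were called higher. The 2 comparisons use different control tumours.

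**Figure D3:**
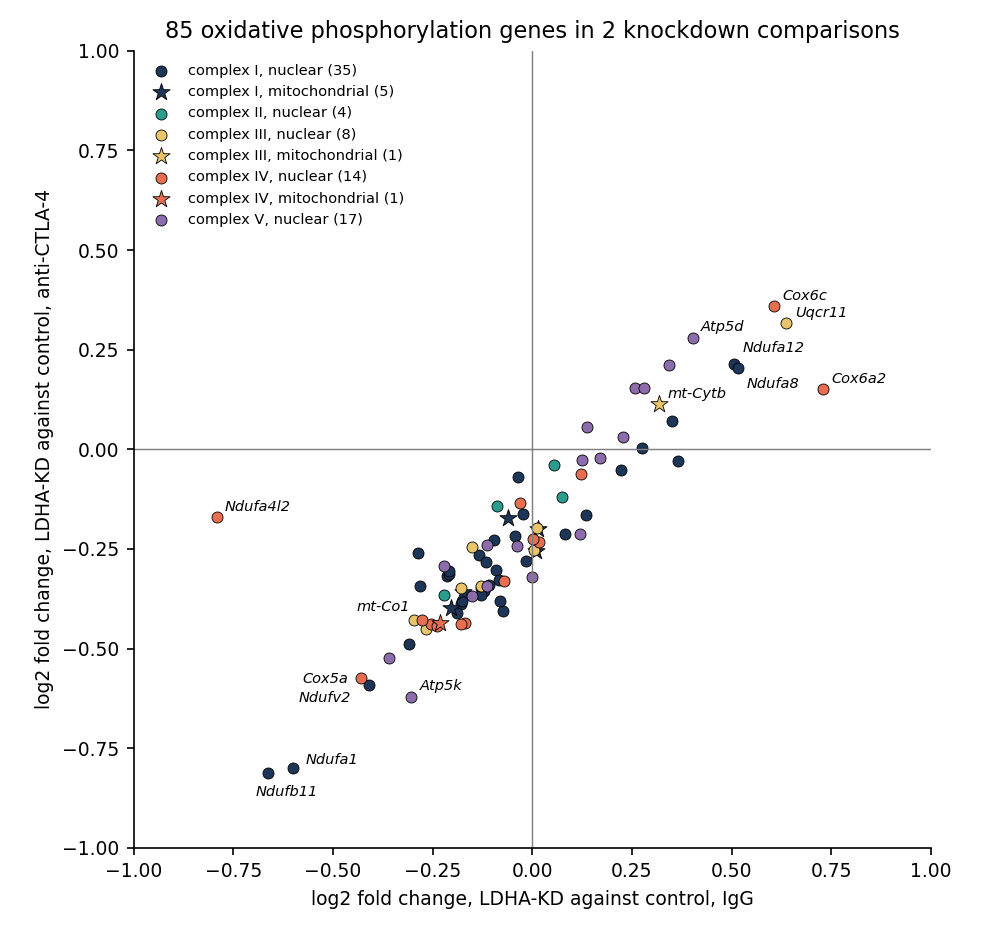
log2 fold change of each of the 85 members in LDHA-KD against control under IgG (x axis) and under anti-CTLA-4 (y axis), coloured by complex, with stars for mitochondrial genes. Most points lie below 0 on the y axis (71 of 85) and fewer do so on the x axis (55 of 85 left of 0), and Ndufa1 and Ndufb11 are lowest on the y axis.

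Among complex I genes, the largest decreases were in 2 small accessory subunits of the membrane arm. Ndufa1 (chrX:37187588-37191163, minus strand) measured 66.1, 51.6, 58.5 and 57.7 CPM in control and 38.6, 39.8, 38.3, 39.0 and 37.3 CPM in LDHA-KD tumours under IgG. Under anti-CTLA-4 it measured 74.3, 55.6, 69.5, 70.4 and 71.6 CPM in control and 50.7, 37.3, 34.9, 40.3 and 32.7 CPM in LDHA-KD tumours. In both treatments every LDHA-KD library lay below every control library. The edgeR test gave a log2 fold change -0.60 ± 0.11 (SE), adjusted p = 2.77e-04 under IgG, and -0.80 ± 0.10, adjusted p = 7.72e-06 under anti-CTLA-4.

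Ndufb11 (chrX:20615326-20617619, minus strand) measured 137, 99.8, 119.5 and 130.3 CPM in control and 76.7, 81.8, 68.0, 81.9 and 75.6 CPM in LDHA-KD tumours under IgG. Under anti-CTLA-4 the values were 136, 113, 115, 147 and 118 CPM and 103, 73.1, 52.2, 78.4 and 51.5 CPM. The groups did not overlap in either treatment, although LDHA-KD replicate 1 under anti-CTLA-4 came near the controls. Its log2 fold changes were -0.66 ± 0.16 (SE, adjusted p = 0.00303, edgeR) and -0.81 ± 0.15 (adjusted p = 3.18e-04).

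Core subunits that carry electrons through complex I were called as well. Ndufv1, the subunit that binds NADH, was called under anti-CTLA-4 only (log2 fold change -0.34 ± 0.080 (SE), adjusted p = 0.00225, edgeR), with 90.4, 84.2, 93.0, 79.9 and 80.7 CPM in control against 69.7, 68.4, 63.9, 67.4 and 68.8 CPM in LDHA-KD tumours, again without overlap. Its log2 fold change under IgG was -0.11 ± 0.084. The difference between the 2 treatments was not significant for Ndufv1 or for any other member (adjusted p of the interaction at least 0.9998).

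Ndufv2, which holds an iron-sulphur cluster beside Ndufv1, was lower under anti-CTLA-4 (log2 fold change -0.59 ± 0.17 (SE), adjusted p = 0.00998, edgeR), a call lost without LDHA-KD replicates 3 and 5 (0.104). Ndufs1, the largest core subunit, missed the threshold in both comparisons, with log2 fold changes of -0.29 ± 0.11 (adjusted p = 0.0532) and -0.26 ± 0.11 (0.0565) in the edgeR fit. Ndufs1 was called lower in 12 of 30 alternatives under IgG, among them the fit that left out replicates 3 and 5 of LDHA-KD under anti-CTLA-4 (0.0207). Under anti-CTLA-4 it was called lower in 5 of 30. With the replicate block it was called in both (0.0414 and 0.0443).

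The accessory complex I genes Ndufa8 and Ndufa12 were higher in LDHA-KD tumours under IgG. Ndufa8 measured 64.5, 54.4, 57.1 and 51.1 CPM in control and 87.7, 77.9, 91.7, 68.3 and 80.6 CPM in LDHA-KD tumours, and Ndufa12 measured 36.4, 27.2, 29.1 and 32.1 CPM and 49.3, 46.3, 38.3, 42.3 and 45.4 CPM. Neither gene overlapped between the groups. The edgeR log2 fold changes were 0.52 ± 0.12 (SE, adjusted p = 0.00267) and 0.51 ± 0.13 (adjusted p = 0.00531). Under anti-CTLA-4 the values were 0.21 ± 0.11 and 0.21 ± 0.12, and neither passed the test. Ndufa12 was called higher there in 4 of 30 alternatives. Among them were the fits without LDHA-KD replicates 3 and 5 (0.38 ± 0.11, adjusted p = 0.0149, edgeR), with the covariate (0.0129) and without replicates 3 and 5 of both anti-CTLA-4 groups (0.0375).

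Complex II, the succinate dehydrogenase that is wholly nuclear encoded, had the medians closest to 0 of the 5 complexes in both comparisons. Sdha, its flavoprotein, measured 200.3, 199.9, 186 and 199 CPM in control and 181, 183, 194, 189 and 176 CPM in LDHA-KD tumours under IgG, with overlap and a log2 fold change of -0.09 ± 0.058 (SE). Under anti-CTLA-4 Sdha was called lower by a small margin (log2 fold change -0.14 ± 0.055 (SE), adjusted p = 0.0439, edgeR), and the call was lost in 17 of 30 alternatives. Sdhd, a membrane anchor, was lower under anti-CTLA-4 (log2 fold change -0.37 ± 0.11 (SE), adjusted p = 0.0111, edgeR), a call lost without LDHA-KD replicates 3 and 5 (0.126), without replicates 3 and 5 of both groups (0.129) and with the covariate (0.11025). Sdhb, the iron-sulphur subunit, and Sdhc, the other anchor, passed in neither comparison, with log2 fold changes between -0.12 and 0.07.

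In complex III the small subunit Uqcr11 (chr10:80402997-80406830, minus strand) was higher in LDHA-KD tumours under IgG. It measured 47.6, 49.5, 60.7 and 59.6 CPM in control and 86.1, 85.3, 87.7, 81.0 and 82.5 CPM in LDHA-KD tumours, with no overlap (log2 fold change 0.64 ± 0.15 (SE), adjusted p = 0.00348, edgeR). Under anti-CTLA-4 it measured 66.6, 56.8, 65.9, 51.0 and 52.1 CPM and 108, 64.4, 51.7, 78.2 and 61.7 CPM, with overlap, as LDHA-KD replicates 2, 3 and 5 lay among the controls and replicate 1 was highest of all. The difference there was 0.32 ± 0.14 (adjusted p = 0.0871, edgeR). It was called in 4 of 30 alternatives, among them the fit without LDHA-KD replicates 3 and 5. The core proteins Uqcrc1 and Uqcrc2 and the Rieske iron-sulphur protein Uqcrfs1 were lower under anti-CTLA-4, with log2 fold changes of -0.24 ± 0.075, -0.43 ± 0.12 and -0.35 ± 0.10 (adjusted p = 0.0144, 0.00768 and 0.0109, edgeR). Of the last 3, the Uqcrc1 call held in every alternative and the Uqcrfs1 call was lost without replicates 3 and 5 (0.125). The Uqcrc2 call was lost without those replicates (0.0905), without replicates 3 and 5 of both groups (0.0774) and with the covariate (0.0891).

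In complex IV, Cox5a (chr9:57521274-57532426, plus strand), which has no tissue isoform, was lower in LDHA-KD tumours in both treatments. It measured 119, 84.3, 83.2 and 86.7 CPM in control and 67.8, 67.2, 75.6, 68.0 and 68.1 CPM in LDHA-KD tumours under IgG, and 122, 80.8, 111, 99.2 and 111 and 79.6, 71.1, 64.6, 64.1 and 72.2 CPM under anti-CTLA-4. No LDHA-KD library reached the lowest control library in either treatment, and control replicate 1 was the highest library in both. The edgeR log2 fold changes were -0.43 ± 0.11 (SE, adjusted p = 0.0064) and -0.58 ± 0.11 (adjusted p = 3.56e-04), and both calls held in all 30 alternatives.

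Cox6c went the other way under IgG. It measured 330.2, 205, 239 and 300.4 CPM in control and 415, 407, 379, 433 and 411 CPM in LDHA-KD tumours, with no overlap (log2 fold change 0.61 ± 0.21 (SE), adjusted p = 0.0344, edgeR). The call was lost when any 1 of LDHA-KD replicates 1, 2, 4 and 5 or control replicates 3 and 4 was left out (adjusted p up to 0.104). Under anti-CTLA-4 the LDHA-KD libraries ran from 225 CPM in replicate 3 to 586 CPM in replicate 1, and the log2 fold change of 0.36 ± 0.20 did not pass. It was 0.67 ± 0.16 without replicates 3 and 5 (adjusted p = 0.00414, edgeR), 0.69 ± 0.14 with the covariate (7.47e-04) and 0.63 ± 0.19 without replicates 3 and 5 of both groups (0.0252), and Cox6c was called higher in each. In all, 4 of 30 alternatives called Cox6c higher under anti-CTLA-4.

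Complex IV also has tissue isoforms, and those of heart and skeletal muscle were at low levels. Cox6a2 had a median of 1.21 CPM per kilobase against 169 for the ubiquitous Cox6a1. Cox7a1 had 2.06 CPM per kilobase against 155 for Cox7a2, and Cox8b, which fell below the level rule, 1.42 against 233 for Cox8a. Cox6a2 measured 0.82, 0.841, 0.595 and 0.399 CPM in control and 1.39, 0.948, 0.947, 1.11 and 1.115 CPM in LDHA-KD tumours under IgG, without overlap and with a log2 fold change of 0.73 ± 0.25 (SE). It reached the level rule through 3 LDHA-KD libraries under IgG and 1 under anti-CTLA-4, so the rule itself favoured a higher LDHA-KD level. Cox6a2 is counted among the 8 members called higher and the 9 without overlap under IgG. Its difference is given as a description, and its call is not taken as support. The 12 skeletal muscle markers, all above 0, summed to 76.5 to 114 CPM in control and 56.7 to 139 CPM in LDHA-KD tumours under IgG, with 0 of 12 higher and 2 of 12 lower in LDHA-KD. Their part in the Cox6a2 difference was not tested.

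The ubiquitous isoform Cox6a1, then Cox7a2l, which is known for its part in supercomplexes, and the ubiquitous Cox8a were lower in LDHA-KD tumours under anti-CTLA-4, with log2 fold changes of -0.33 ± 0.10, -0.43 ± 0.094 and -0.44 ± 0.10 (adjusted p = 0.0131, 0.00123 and 0.002, edgeR). The Cox7a2l call held in all alternatives, that of Cox8a failed without replicates 3 and 5 of both anti-CTLA-4 groups (0.0866), and that of Cox6a1 failed in 3 (up to 0.210). Cox7a2 and Cox6b1 did not pass. Cox7a1 did not pass either (-0.26 ± 0.21 under IgG and -0.44 ± 0.20 under anti-CTLA-4). Cox6b2, the testis isoform, reached 1 CPM in 1 library only.

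Ndufa4 and Ndufa4l2 are paralogs, of which Ndufa4l2 is known as a target of hypoxia-inducible factor. Ndufa4l2 measured 4.05, 5.68, 6.46 and 3.68 CPM in control and 2.63, 2.49, 3.00, 3.02 and 3.21 CPM in LDHA-KD tumours under IgG. Every LDHA-KD library lay below every control library, yet the log2 fold change of -0.79 ± 0.31 just missed the threshold (adjusted p = 0.0522, edgeR). Under anti-CTLA-4 LDHA-KD libraries spread from 2.29 CPM in replicate 2 to 11.0 CPM in replicate 3, and the difference was -0.17 ± 0.28. Without replicates 3 and 5 of that group, Ndufa4l2 was called lower both under anti-CTLA-4 (-0.81 ± 0.22, adjusted p = 0.0102, edgeR) and under IgG (-0.79 ± 0.20, 0.00527). It was called lower in both as well with the covariate (0.0408 and 0.00365) and without replicates 3 and 5 of both anti-CTLA-4 groups (0.0496 and 0.00686). In all, 3 of 30 alternatives called it under anti-CTLA-4 and 9 of 30 under IgG. Ndufa4 did not differ by the test in either comparison (0.12 ± 0.21 and -0.06 ± 0.19).

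In complex V, the alpha and beta subunits of the catalytic head, Atp5a1 and Atp5b, had median levels of 189 and 231 CPM per kilobase, and Atp5b was the highest of the complex. Atp5b did not pass in either comparison (0.14 ± 0.067 and 0.06 ± 0.063), and Atp5a1 was lower under anti-CTLA-4 only (log2 fold change -0.24 ± 0.075 (SE), adjusted p = 0.0154, edgeR), a call lost without LDHA-KD replicates 3 and 5 (0.151). Atp5d, the delta subunit of the central stalk, was the only member higher in both treatments in the fit over all libraries. It measured 62.1, 72.9, 87.1 and 72.4 CPM in control and 93.1, 106, 95.4, 97.6 and 94.9 CPM in LDHA-KD tumours under IgG, without overlap (log2 fold change 0.40 ± 0.12 (SE), adjusted p = 0.0113, edgeR), and the call was lost without control replicate 1 (0.0577). Its change under anti-CTLA-4 (log2 fold change 0.28 ± 0.11 (SE), adjusted p = 0.0472, edgeR) was lost in 20 of 30 alternatives.

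Atp5k, the e subunit of the membrane part, fell in both treatments. It measured 98.1, 75.4, 74.9 and 78.9 CPM in control and 68.7, 68.1, 70.6, 59.8 and 64.2 CPM in LDHA-KD tumours under IgG, and 96.4, 75.3, 91.9, 86.8 and 95.9 and 74.0, 55.7, 47.3, 62.5 and 50.6 CPM under anti-CTLA-4. The groups did not overlap in either treatment, and control replicate 1 was highest under IgG. The log2 fold change was -0.30 ± 0.11 (SE, adjusted p = 0.0467, edgeR) under IgG, a call lost in 16 of 30 alternatives, and -0.62 ± 0.11 (adjusted p = 1.91e-04) under anti-CTLA-4, which held in all 30. The genes Atp5g1, Atp5g2 and Atp5g3 encode the same mature c subunit of the proton-carrying ring. Atp5g1 was higher under IgG (log2 fold change 0.26 ± 0.092 (SE), adjusted p = 0.0373, edgeR, lost in 8 of 30 alternatives) and was called higher under anti-CTLA-4 in 3 of 30 alternatives, Atp5g3 was lower under anti-CTLA-4 (log2 fold change -0.34 ± 0.10 (SE), adjusted p = 0.0108, lost in 3 of 30), and Atp5g2 passed in neither. Of the 3, Atp5g3 had the highest level per kilobase (71.1 CPM), followed by Atp5g2 (24.9) and Atp5g1 (10.9).

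The 7 mitochondrial transcripts did not move as 1 block. mt-Cytb measured 5509, 4190.2, 3986 and 4775 CPM in control and 6121, 6102, 6256, 5436 and 4860.1 CPM in LDHA-KD tumours under IgG, and its log2 fold change, 0.32 ± 0.14 (SE), missed the threshold in edgeR (adjusted p = 0.0921). mt-Co1 measured 16244, 11999, 10998 and 12397 CPM and 11233, 12693, 10581, 10704 and 9749.8 CPM, with -0.23 ± 0.16 (adjusted p = 0.274). Each gene overlapped between the groups when taken alone. mt-Cytb was called higher under IgG in 5 of 30 alternatives, among them the covariate fit and the fit without LDHA-KD anti-CTLA-4 replicates 3 and 5. mt-Cytb is encoded last and mt-Co1 nearer the start on the heavy-strand precursor from which both are cut.

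Within each library, however, mt-Cytb stood higher beside mt-Co1 in LDHA-KD tumours. The ratio of their CPM was 0.339, 0.349, 0.362 and 0.385 in control and 0.545, 0.481, 0.591, 0.508 and 0.498 in LDHA-KD tumours under IgG. Under anti-CTLA-4 it was 0.335, 0.364, 0.370, 0.300 and 0.337 in control and 0.513, 0.488, 0.467, 0.489 and 0.517 in LDHA-KD tumours. All 10 LDHA-KD libraries lay above all 9 control libraries, replicates 3 and 5 under anti-CTLA-4 included, and the mean log2 difference was 0.55 under IgG and 0.54 under anti-CTLA-4. Of the 21 pairs of mitochondrial genes, 5 did not overlap between LDHA-KD and control in both treatments, and 4 of these held mt-Cytb, with mt-Nd1, mt-Nd2, mt-Nd6 and mt-Co1 as partners. The fifth was mt-Nd2 over mt-Co1, at 0.24 and 0.22 on the log2 scale. Separation of the lines was common among single genes. Under IgG 15.1% of all genes did not overlap with LDHA-KD higher and 15.2% with it lower, and under anti-CTLA-4 11.6% in each direction. The share among pairs of other genes is not given here. The pair of mt-Cytb and mt-Co1 was singled out after its values were seen, so the ratios are a description without a test.

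**Figure D4:**
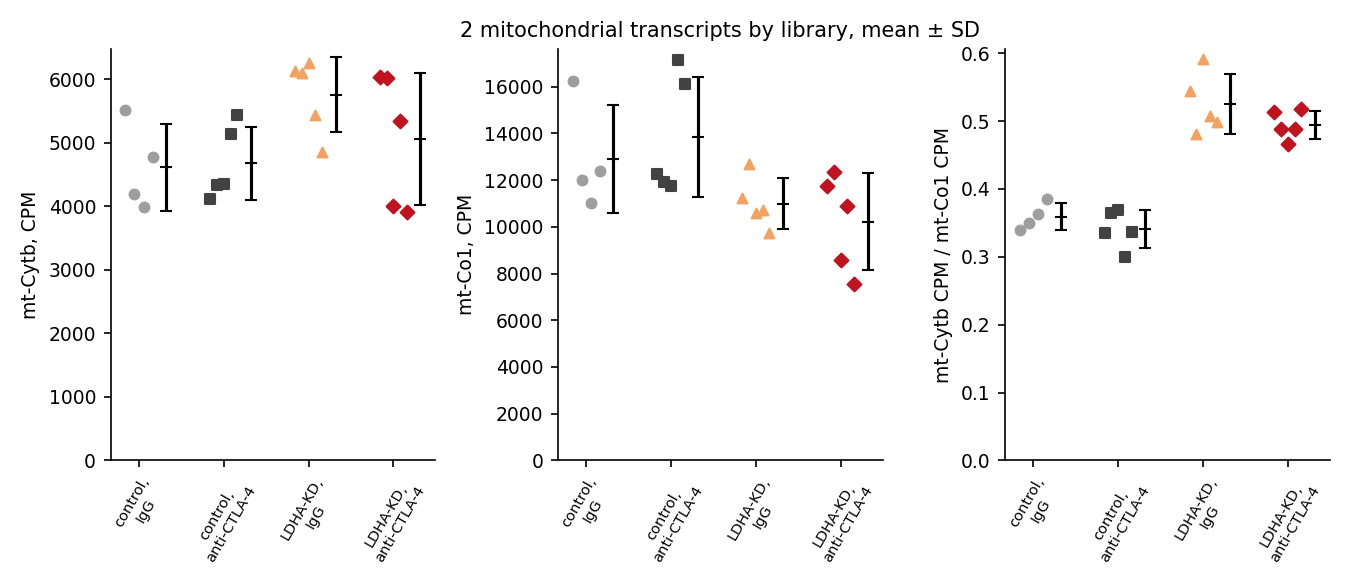
CPM of mt-Cytb (left) and mt-Co1 (middle) and their ratio (right) in each library by group, with mean ± SD beside the points. The groups overlap in each gene, while the ratio runs from 0.300 to 0.385 in control and from 0.467 to 0.591 in LDHA-KD libraries.

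Under anti-CTLA-4, mt-Co1 was lower in LDHA-KD tumours, with 12262, 11915, 11763, 17121 and 16113 CPM in control and 11749, 12326, 8569, 10908 and 7571 CPM in LDHA-KD libraries. The groups overlapped, and replicates 3 and 5 were the lowest (log2 fold change -0.44 ± 0.15 (SE), adjusted p = 0.0255, edgeR). Without those replicates the call was lost (0.206). mt-Nd6 was called lower too (log2 fold change -0.36 ± 0.14 (SE), adjusted p = 0.0434, edgeR), and its call was lost in 14 of 30 alternatives. mt-Nd1, mt-Nd2, mt-Nd4 and mt-Nd5, core subunits of the membrane arm of complex I, had log2 fold changes of -0.40, -0.20, -0.26 and -0.17, and none passed. Under IgG the same 4 genes lay between -0.20 and 0.01.

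No member passed the test for treatment with anti-CTLA-4 within either line. In control tumours 0 of 85 members and 0% of all genes were called against IgG by edgeR (unadjusted p under 0.05 in 0 members and 1346 genes), while DESeq2 called 11 genes and limma voom 0, with no member among them. No member was without overlap in CPM, beside 0.555% of all genes with the treated group higher and 0.716% with it lower. The members' median log2 fold change was 0.08, and 75 of 85 were above 0. In LDHA-KD tumours 0 members and 0% of all genes were called (unadjusted p under 0.05 in 5 members and 1988 genes), DESeq2 called 46 genes higher and 7 lower and limma voom 0, again without a member. No member was without overlap, beside 0.817% of all genes higher and 0.567% lower. There 81 of 85 members were below 0, with a median of -0.11, and without replicates 3 and 5 of the treated group the median was 0.01. The largest single value was Ndufa4l2 in LDHA-KD tumours (0.94 ± 0.29, SE, adjusted p = 0.312, edgeR).

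The interaction, which asks whether the knockdown difference itself differed between treatments, called 0 members and 0% of all genes (unadjusted p under 0.05 in 2 members, Ndufa11 and Atp5g2, and in 415 genes, with 0 genes by DESeq2 and 0 by limma voom). Its median over the members was -0.20, and -0.04 without replicates 3 and 5 of LDHA-KD under anti-CTLA-4. The larger number of members called under anti-CTLA-4 than under IgG is thus not shown to be a difference between the treatments. These comparisons share groups with one another, so their values are not independent.

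Where a nuclear member lies in the genome went along with how it differed. For each of the 78 nuclear members the median log2 fold change of all other tested genes within 5 Mb on either side was taken, over 17 to 260 neighbours. Across the 78 members, the member's own value and its neighbours' median had a Pearson correlation of 0.57 (Spearman 0.58) under IgG and 0.65 (0.62) under anti-CTLA-4. Members on 1 chromosome share neighbours and all points share the libraries, so these are descriptions only.

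Examples lay on chromosomes X and 10. Under IgG, Ndufa1 at -0.60 lay among neighbours with a median of -0.67, and Ndufb11 at -0.66 among neighbours at -0.53, while all 547 tested genes of chromosome X had a median of -0.18. Of the 6 members on chromosome 10, 5 were above 0 and 3 were called higher (Ndufa12, Uqcr11 and Atp5d), beside a median of 0.13 over the chromosome's 743 tested genes. Uqcr11 at 0.64 had neighbours at 0.30, and Atp5d at 0.40 had neighbours at 0.31. Ndufs7, another chromosome 10 gene and a core subunit of complex I, was at 0.35 beside 0.31 and did not pass (adjusted p = 0.078, edgeR).

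Other members had values farther from those of their surroundings. Cox5a at -0.43 had neighbours at -0.17, Cox6c at 0.61 had neighbours at 0.01, and Ndufa4l2 at -0.79 had neighbours at 0.24. Taking the neighbours' median from each member moved the members' median from -0.09 to -0.06 under IgG and from -0.27 to -0.25 under anti-CTLA-4, over the 78 nuclear genes.

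**Figure D5:**
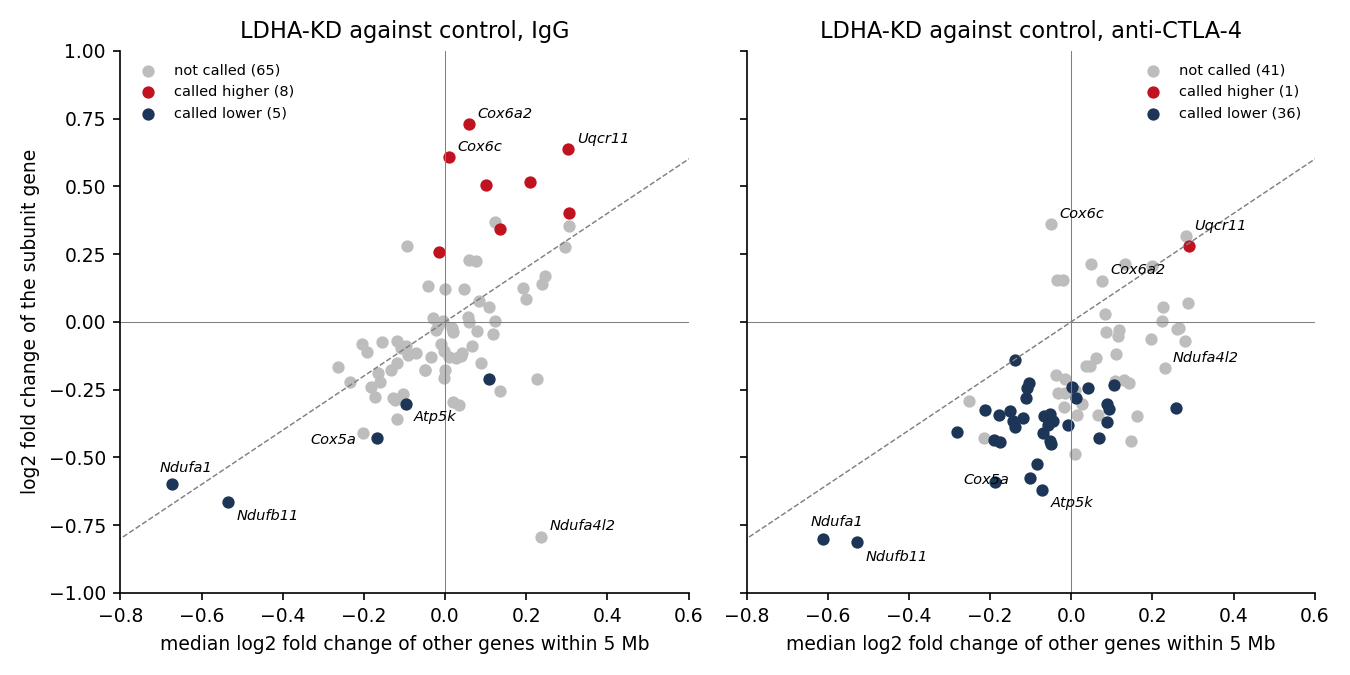
log2 fold change of each of the 78 nuclear members (y axis) against the median log2 fold change of the other tested genes within 5 Mb (x axis), under IgG (left) and anti-CTLA-4 (right), coloured by call, with the line of equality dashed. Ndufa1 and Ndufb11 lie at the lower left in both panels, Uqcr11 at the upper right, and Ndufa4l2 and Cox6c far from the line under IgG.

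Promoters were examined because nuclear oxidative phosphorylation genes are known to share binding motifs for a small number of transcription factors. RefSeq promoter sequences (GRCm38.p6, from 250 bases before to 50 bases after the start) were found for 66 of the 78 nuclear members, 72 promoters in all. On either strand, the palindromic motif of nuclear respiratory factor 1 (NRF1) stood in 25.0% of them against 4.60% of all 32851 promoters of this length. CCGGAAG, read by ETS factors such as GABPA, stood in 22.2% against 8.86%, and AAGATGG, read by YY1, in 18.1% against 6.34%. GGGCGG, the SP1 box, stood in 37.5% of the members' promoters against 35.7% of all. The motifs were counted separately, and a base could belong to more than 1 match.

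The promoters of the called members with the largest change under IgG, among those matched on the same strand and holding at least 1 motif, are printed, 2 genes lower and 2 higher in LDHA-KD tumours, with motif matches in capitals. Ndufa1 is from chrX:37191189-37191488 (minus strand), Cox5a from chr9:57520982-57521281 (plus), Uqcr11 from chr10:80406772-80407071 (minus) and Ndufa8 from chr2:36049289-36049588 (minus).
Ndufa1: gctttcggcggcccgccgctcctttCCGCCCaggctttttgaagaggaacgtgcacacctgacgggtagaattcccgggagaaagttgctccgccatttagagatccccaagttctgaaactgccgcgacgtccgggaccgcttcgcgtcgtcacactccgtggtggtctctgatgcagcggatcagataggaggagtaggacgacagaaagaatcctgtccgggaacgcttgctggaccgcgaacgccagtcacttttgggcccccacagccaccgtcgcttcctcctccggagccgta
Cox5a: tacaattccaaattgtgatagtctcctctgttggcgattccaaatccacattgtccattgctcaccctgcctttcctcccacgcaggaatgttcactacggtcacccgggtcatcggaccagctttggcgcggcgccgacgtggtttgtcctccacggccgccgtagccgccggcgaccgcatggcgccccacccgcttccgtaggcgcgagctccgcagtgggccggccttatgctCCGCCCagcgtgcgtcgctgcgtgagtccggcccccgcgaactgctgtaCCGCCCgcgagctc
Uqcr11: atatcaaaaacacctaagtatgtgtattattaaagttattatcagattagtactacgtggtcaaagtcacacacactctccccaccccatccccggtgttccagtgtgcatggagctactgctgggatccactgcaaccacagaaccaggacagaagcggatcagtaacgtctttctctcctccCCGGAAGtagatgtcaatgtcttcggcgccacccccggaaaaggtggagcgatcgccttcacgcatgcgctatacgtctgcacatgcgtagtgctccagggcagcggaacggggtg
Ndufa8: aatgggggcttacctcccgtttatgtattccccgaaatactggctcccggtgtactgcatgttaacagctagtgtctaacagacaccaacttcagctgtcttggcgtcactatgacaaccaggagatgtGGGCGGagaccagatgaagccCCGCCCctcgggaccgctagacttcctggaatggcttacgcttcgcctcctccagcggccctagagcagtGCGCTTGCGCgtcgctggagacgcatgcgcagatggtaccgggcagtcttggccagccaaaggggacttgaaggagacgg
The capitals mark 1 SP1 box in Ndufa1, 2 in Cox5a, an ETS motif in Uqcr11, and 2 SP1 boxes with an NRF1 motif in Ndufa8. Of 12 promoters of members called under IgG, 8 belonged to genes that were higher and 4 to genes that were lower. The NRF1 motif stood in 1 of the 8 and 1 of the 4, and in 16 of the 60 promoters of members not called. The ETS motif stood in 1, 1 and 14, the YY1 motif in 2, 0 and 11, and the SP1 box in 2, 2 and 23. These counts are a description, and a match in these letters does not show binding.

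Genes that build, feed or regulate the complexes were taken from lists of symbols. Of 42 tested assembly factors, 3 were higher and 4 lower in LDHA-KD under IgG, and 4 and 13 under anti-CTLA-4. Of all genes tested, 16.8% were higher and 17.5% lower under IgG, and 20.2% and 19.8% under anti-CTLA-4. Without LDHA-KD anti-CTLA-4 replicates 3 and 5, 4 assembly factors were higher and 5 lower (11.9% lower, against 16.1% of all genes) under anti-CTLA-4. Among them the complex I assembly factor Foxred1 was higher in both (log2 fold change 0.60 ± 0.076 and 0.59 ± 0.071, SE, adjusted p = 7.91e-06 and 4.13e-06, edgeR), and Uqcc2, needed for cytochrome b synthesis, was lower in both (-0.65 ± 0.13 and -0.95 ± 0.12, adjusted p = 5.60e-04 and 7.10e-06).

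Of 25 tested electron carriers and other mitochondrial membrane genes, 9 were lower under IgG (36%, against 17.5% of all genes). Under anti-CTLA-4, 14 were lower (56%, against 19.8%). None was higher in either, beside 16.8% and 20.2% of all genes. The list takes in outer membrane genes such as Vdac3, and the subunit genes Cox4i1, Cyc1 and Ndufab1. Without LDHA-KD anti-CTLA-4 replicates 3 and 5 the 14 became 8 (32%, against 16.1% of all genes). With the covariate 9 were lower (36%, against 16.8%) and 2 higher (8%, against 16.9%). Slc25a5, an ADP/ATP exchanger, had the smallest adjusted p (-0.69 ± 0.081, adjusted p = 3.22e-06, edgeR, and -0.86 ± 0.077, adjusted p = 1.09e-07), and the coenzyme Q synthesis genes Coq5 and Coq2 were lower under IgG (-0.30 ± 0.061 and -0.43 ± 0.095, adjusted p = 8.49e-04 and 0.00165). Of 77 mitochondrial ribosomal protein genes, 2 were higher and 17 lower under IgG, and 1 and 35 under anti-CTLA-4, with medians of -0.11 and -0.26. The share lower, 22.1% and 45.5%, stood beside 17.5% and 19.8% of all genes. With the covariate, 13 were lower under IgG (16.9%, against 18.1% of all genes) and 6 higher (7.79%, against 17.9%), with a median of -0.03. Under IgG, 21 were lower without LDHA-KD anti-CTLA-4 replicates 3 and 5 (27.3%, against 18.9%). Without LDHA-KD anti-CTLA-4 replicates 3 and 5, 22 were lower under anti-CTLA-4 (28.6%, against 16.1% of all genes), and 21 with the covariate (27.3%, against 16.8%). Mrps10 was lower in both (-0.30 ± 0.073 and -0.47 ± 0.069, adjusted p = 0.00354 and 3.20e-05, edgeR).

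Mitochondrial DNA maintenance and expression had 26 tested genes, with 2 higher and 3 lower in each comparison. The share lower, 11.5% in each, stood beside 17.5% and 19.8% of all genes, and 16.8% and 20.2% of all genes were higher. Polrmt, the mitochondrial RNA polymerase, was higher (0.70 ± 0.12, adjusted p = 1.54e-04, edgeR, and 0.70 ± 0.11, adjusted p = 6.28e-05). Grsf1, which acts in mitochondrial RNA granules, and Lrpprc, which stabilises mitochondrial mRNAs, were lower (Grsf1 -0.69 ± 0.077 and -0.74 ± 0.073, Lrpprc -0.31 ± 0.062 and -0.28 ± 0.059, edgeR adjusted p between 3.76e-07 and 0.00101). Of 10 tested regulators, 2 were lower under IgG, Gabpa (-0.30 ± 0.061, adjusted p = 9.07e-04) and Yy1 (-0.29 ± 0.080, adjusted p = 0.00881), and 4 lower with 1 higher under anti-CTLA-4 (edgeR). The regulators' share lower, 20% and 40%, stands beside the same shares of all genes. Without LDHA-KD anti-CTLA-4 replicates 3 and 5, 3 regulators were lower under anti-CTLA-4 (30%, against 16.1% of all genes) and 0 higher. The counts of mitochondrial DNA maintenance and expression were then again 2 higher and 3 lower (11.5% lower).

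Cell type markers moved between the groups as well, and their counts stand beside the same all-gene shares (16.8% higher and 17.5% lower under IgG, 20.2% and 19.8% under anti-CTLA-4). Of 12 leukocyte markers, 8 were higher in LDHA-KD under IgG and 9 under anti-CTLA-4 (median log2 fold change 0.97 and 0.91), with summed levels of 667 to 854 CPM in control and 1117 to 1426 in LDHA-KD tumours under IgG, and 845 to 1512 and 1150 to 2110 under anti-CTLA-4. Of 9 epithelial markers, 3 and 5 were lower and 1 was higher in each comparison. Their summed level was 3766 to 4937 CPM in control and 3069 to 3420 CPM in LDHA-KD tumours under IgG, and 3819.6 to 4746 and 2168 to 3365 CPM under anti-CTLA-4, without overlap in either. Of 6 proliferation markers 5 were lower in each (summed levels 2096 to 2279 CPM in control and 1571 to 1836 in LDHA-KD tumours under IgG). Of 5 endothelial markers, 5 and 2 were lower, and of 7 fibroblast markers 3 were lower with 1 higher under IgG and 3 were higher under anti-CTLA-4. Of 5 pericyte and smooth muscle markers 2 were lower in each comparison, and of 5 erythroid markers 1 was. Of 7 tested adipocyte markers 0 and 2 were lower, and their list summed to 98.3 to 831 CPM in control and 71.4 to 165 CPM in LDHA-KD tumours under anti-CTLA-4. Of 12 skeletal muscle markers 2 were lower under anti-CTLA-4 as well. Without LDHA-KD anti-CTLA-4 replicates 3 and 5, 8 leukocyte markers were higher under anti-CTLA-4, and 3 epithelial, 3 proliferation and 3 endothelial markers were lower, with 2 epithelial ones higher. Of the fibroblast markers 2 were then higher and 2 lower, with a median log2 fold change of 0.13, against 0.50 over all libraries. In that fit 16.3% of all genes were higher and 16.1% lower. No list had a marker at 0 in all libraries. The part of these shifts in the differences of the oxidative phosphorylation genes was not tested.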

How the data were processed

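RNA from frozen tumours (500 ng, polyA-selected, TruSeq Stranded mRNA, 8 PCR cycles, paired-end) was sequenced, per the labels' protocols. The authors deposited raw read counts per gene in 1 table; HTSeq 0.5.3, Picard 1.124 (no role given) and mm10 are named in the submitters' processing notes, and aligner, annotation release and strand setting are not given in the sources used here, so counts of overlapping or antisense genes, such as mt-Nd6, can be mixed. Summary lines that name no gene (26.2% to 28.7% of records) were left out.

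All 19 libraries were fitted with edgeR 4.0.16 in R 4.3.3 (TMM scaling, filterByExpr, 1 coefficient per group, quasi-likelihood F test, tested on simulated data), with Benjamini-Hochberg adjustment over 16763 genes at 0.05. The SE is the absolute log2 fold change divided by the square root of F. CPM used TMM-scaled totals, except in the level rule and the floor, which used plain totals. DESeq2 1.42.0 and limma 3.58.1 (voom) served as alternatives. Gene positions and lengths came from GENCODE M21, matched by identifier for 46488 genes.

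Named genes were core subunits, isoform groups, all mitochondrial members, the 5 called members with the largest change per direction and comparison, and up to 3 of a pathway list with the smallest adjusted p; others were named where a count or pattern turned on them, after their values were seen, and 1 member is counted but not reported by name here. The members and lists were chosen with earlier results of these data known. No labels say that replicates came from separate animals, so the p-values may reflect technical spread alone. Counts of no pair of libraries agreed within sampling noise. Floors cover counting error only.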

Additional observations from a re-analysis of the deposited data

Results flagged for a closer look

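Of 160 groups of 4 or 5 libraries tested for a library far from the others, 12 stood out, where chance gives about 1 in 20. That number is not far above this rate. The genes share the same 19 libraries, so the flags are not independent. mt-Co3 in LDHA-KD IgG replicate 3 reached 50.4 CPM against 0.0617 to 0.282 in the other 4. Cox5a was 119 CPM in control IgG replicate 1 (others 83.2 to 86.7) and 75.6 in LDHA-KD IgG replicate 3 (67.2 to 68.1). Cox8a was 192 CPM in control IgG replicate 1 (139 to 145). Atp5g3 was 169 CPM in LDHA-KD IgG replicate 3 (151 to 155) and 185 in LDHA-KD anti-CTLA-4 replicate 1 (132 to 143). Sdha was 186 CPM in control IgG replicate 4 (199 to 200.3) and 208 in control anti-CTLA-4 replicate 4 (188 to 192). LDHA-KD IgG replicate 4 was high for Ndufa4, at 265 CPM (232 to 240.2), and for Ndufs1, at 127 (107 to 111). Control anti-CTLA-4 libraries were low for Ndufa1 in replicate 2, at 55.6 CPM (69.5 to 74.3), and for Ndufa12 in replicate 4, at 30.8 (33.2 to 33.8).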

How the results depend on the processing

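Of 30 called results of named members, 14 kept their call under all 30 alternatives, 16 lost it under at least 1, and 0 changed sign. Cox6a2 under IgG, a member only through LDHA-KD libraries, is among the 16. The number of members lower under anti-CTLA-4 (38) was 22 with only the 2 groups (25.9% of the members against 17.5% of all genes). It was 15 with the share of records outside genes as a covariate (17.6% against 16.8%). Without 4 libraries, replicates 3 and 5 of both anti-CTLA-4 groups, 9 were lower (10.6% against 13.01%). Without 2 of these 4 alone (LDHA-KD replicates 3 and 5, chosen after seeing the data), 14 were lower (16.5% against 16.1%). With 1 library left out the number ran from 21 (24.7% against 17.7%) to 56 (65.9% against 21.7%). The number higher there (1) was 0 without a filter on low counts, with limma voom, with only the 2 groups and with the replicate block. In these fits 11.0% to 21.3% of all genes were higher. It was 5 with the covariate (5.88% against 16.9% of all genes), 3 without the 4 libraries (3.53% against 12.7%) and 4 without the pair (4.71% against 16.3%). With 1 library left out it was 0 to 4, beside 17.3% to 21.3% of all genes. Under IgG, the number higher (8) was 16 with the covariate and 5 to 9 with 1 library left out (5 without LDHA-KD replicate 1 or control replicate 4), and the number lower (5) was 3 without the filter, 9 with only the 2 groups, 9 without the 4 libraries, 9 without the pair, and 3 to 8 with 1 library left out (3 without LDHA-KD IgG replicate 5, 8 without LDHA-KD anti-CTLA-4 replicate 1). No label pairs samples by replicate number, and the values do not settle whether the numbers pair them. Of 27 same-numbered pairs, 15 correlated above 0.1 in their deviations from group means. The median r was 0.12, against -0.04 for other pairs. For 5 of 19 libraries the closest library in another group had the same number. The replicate block gave 47 members lower under anti-CTLA-4 (55.3%, against 21.3% of all genes), 37 of them shared with the 38. The counts of 0 in the treatment and interaction comparisons stayed at 0 in every alternative run, and the ratio of mitochondrial to nuclear counts moved by less than 1 SD in every one; the causes of these shifts were not tested. Genes under the floor of 3 counts give no level at this depth.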
